A study of Homo sapiens with 10 samples.

Results

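The receptors described here are 10 receptor tyrosine kinases chosen by name from the 25370 genes of the deposited count table: the 4 ERBB receptors EGFR, ERBB2, ERBB3 and ERBB4, the receptors AXL and MET, the fibroblast growth factor receptors FGFR1, FGFR2 and FGFR3, and the collagen receptor DDR1. They were followed in PEO1, an established line of high grade serous ovarian carcinoma that lacks working BRCA2, and in 4 clones of it, ABTr1, ABTr2, ABTr3 and ABTr4. The clones were selected for resistance to veliparib, an inhibitor of PARP enzymes, over 6 months of continuous culture at 40 µM, and were harvested for RNA 4 to 5 days after the drug was withdrawn. The parental cells carry the label WT for genotype. The clones derive from this line, and whether each clone kept its BRCA2 defect was not tested here. Each group is 1 line or 1 clone with 2 RNA libraries, numbered replicate 1 and replicate 2, so the 10 libraries hold 2 of parental cells and 8 of clones. What all clones share may go back to the drug, to cloning or to time in culture, and these cannot be told apart. Clones are called by the names of their libraries, since the sample descriptions give them other numbers.

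Total counts per library ran from 20640602 to 55488566. Of the 10 receptors, 8 passed the filter on low counts and were tested among 16490 genes, and ERBB4 and FGFR3 had too few reads. Levels are given in CPM (counts-per-million values on scaled library sizes, not corrected for gene length), ± is the SD over the 2 libraries of a group or over the 4 clone means, and a gene passed at a Benjamini-Hochberg adjusted p under 0.05 in edgeR's quasi-likelihood test over all tested genes. The labels do not say whether the 2 libraries of a group came from separate cultures, so p-values measure only the spread between these libraries. In RNA from a whole culture, fewer expressing cells and less RNA per cell cannot be told apart. Deviations were shared between same-numbered libraries, and a second fit blocked on that number is quoted, as the replicate block, where it changes a call.

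The cells are labelled epithelial, and the 6 epithelial markers EPCAM, CDH1, KRT8, KRT18, KRT19 and CLDN4 summed to 6600 to 10200 CPM in the parental libraries and to 1990 to 2470 CPM in the clone libraries. All 6 fell in the mean of the clones (edgeR). CDH1, which encodes E-cadherin, held 147 and 358 CPM in parental replicates 1 and 2, and 9.56 CPM or less in every clone library. Among 8 fibroblast markers, COL3A1, LUM and DCN had no read (0) in any library, and the list summed to 89.1 to 176 CPM in parental and 134 to 183 CPM in clone libraries. The 6 leukocyte markers summed to 10.3 to 19.6 CPM in parental and 4.04 to 20 CPM in clone libraries, the 5 endothelial markers to 15.5 to 62.4 and 2.01 to 16.3 CPM, and the 4 mesothelial markers to 102 to 224 and 44 to 185 CPM. Of these other lists, 1 endothelial and 2 mesothelial markers fell in the mean of the clones. The epithelial markers fell, as did ERBB2, ERBB3, MET and FGFR2 below, while FGFR1 rose. Their part in those results was not tested.

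Receptor tyrosine kinases span the plasma membrane, pair when a ligand binds outside, and phosphorylate each other inside, which starts RAS to ERK and PI3K to AKT signalling. ERBB3 has a weak kinase and signals mainly through partners such as ERBB2, which itself has no known ligand. FGFR1 and FGFR2 bind fibroblast growth factors with heparan sulfate or Klotho proteins, AXL binds GAS6 and MET binds hepatocyte growth factor. Epithelial carcinoma cells commonly express ERBB3, FGFR2 and DDR1, while AXL and FGFR1 are often associated with mesenchymal cells.

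When the average over the 4 clones was set against parental cells, FGFR1 rose and ERBB2, ERBB3, MET and FGFR2 fell, while EGFR, AXL and DDR1 did not pass. Thus 1 of the 8 tested receptors was called higher, where 7.17% of all tested genes were, and 4 were called lower, where 8.79% were (edgeR). The median log2 fold change of the 8 was -1.04, and that of all tested genes was 0.02. With the replicate block, EGFR and DDR1 also passed as lower, which made 6 lower and 1 higher. Under that fit 18.2% of all tested genes were called lower and 16.3% higher.

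**Figure D1:**
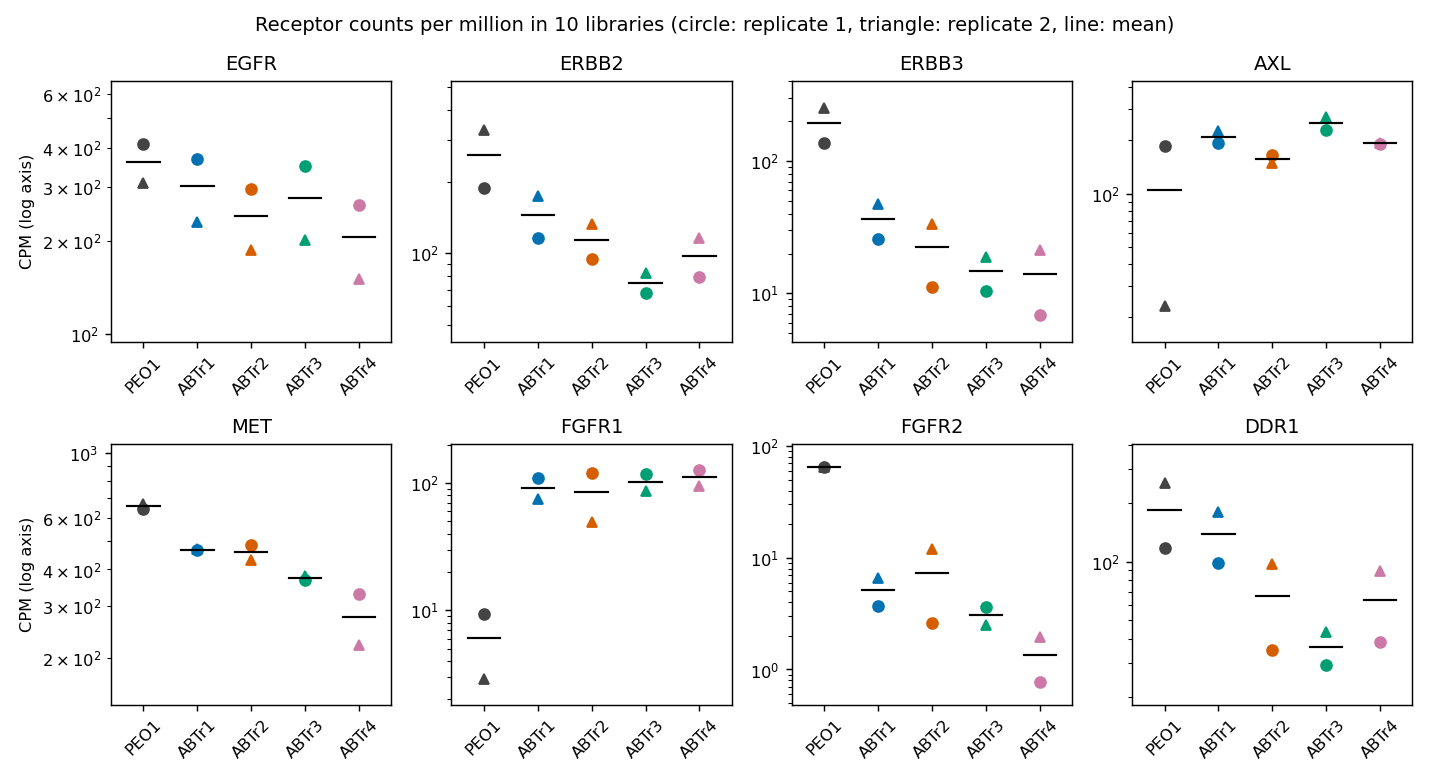
CPM (log axis, with its own range in each panel) of the 8 tested receptors in the 10 libraries, by group. Circles are replicate 1, triangles replicate 2 and lines the means. FGFR1 lies higher in every clone library than in both parental libraries, ERBB2, ERBB3, MET and FGFR2 lie lower, and EGFR, AXL and DDR1 overlap.

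Promoter sequence is shown for the FGFR2 and MET genes, which fell, and for AXL, which alone held a CAGGTG motif. RefSeq's promoter table (GRCh38.p14) held 8 of the 10 receptors, and ERBB3 and FGFR1 are named only. The windows were the 250 bases before the most upstream listed start, and the parts free of annotated exons are printed, 5′ to 3′ on the strand of the gene. Capitals mark CAGGTG, the E-box bound by ZEB and SNAIL factors, and GGGCGG, the GC box, both searched on both strands. The AXL stretch is GRCh38.p14 chr19:41218973-41219202 and ends 20 bases before the start, the MET stretch is chr7:116671946-116672195, and the FGFR2 stretch is chr10:121598459-121598694 on the minus strand and ends 14 bases before the start. The start listed for MET lies outside the transcripts of the gene in the GENCODE annotation.
AXL: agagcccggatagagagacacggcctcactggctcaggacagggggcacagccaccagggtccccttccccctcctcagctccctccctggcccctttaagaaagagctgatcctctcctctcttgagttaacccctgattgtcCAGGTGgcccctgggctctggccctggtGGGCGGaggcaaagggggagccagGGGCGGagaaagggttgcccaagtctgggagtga
MET: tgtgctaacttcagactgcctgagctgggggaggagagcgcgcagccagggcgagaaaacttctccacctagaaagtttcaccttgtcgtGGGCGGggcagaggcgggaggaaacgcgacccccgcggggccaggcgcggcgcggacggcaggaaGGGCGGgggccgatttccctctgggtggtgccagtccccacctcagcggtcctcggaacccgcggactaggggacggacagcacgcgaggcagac
FGFR2: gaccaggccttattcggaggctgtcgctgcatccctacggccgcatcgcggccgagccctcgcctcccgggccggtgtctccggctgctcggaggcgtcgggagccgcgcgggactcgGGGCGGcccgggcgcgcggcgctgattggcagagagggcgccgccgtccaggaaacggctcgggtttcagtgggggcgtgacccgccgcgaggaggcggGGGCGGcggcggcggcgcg

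CAGGTG occurred 1 time in the AXL window and in no other of the 8 windows, and 17.5% of 27303 promoter windows of that length hold it. GGGCGG occurred in the windows of EGFR (2 times), ERBB4 (1), AXL (2), MET (2), FGFR2 (3) and FGFR3 (8), and 42.2% of all windows hold it. The AP-1 motif TGACTCA, found in 4.15% of windows, occurred in none of the 8. The AXL window had 64.4% GC and 4 CpG, the MET window 68.4% and 24 CpG, and the FGFR2 window 78.4% and 42 CpG, where the medians over all windows were 57.6% and 10 CpG. These matches describe the letters of 1 start per gene, and which start PEO1 cells use was not measured.

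Of the FGF receptors, FGFR1 rose and FGFR2 fell. FGFR1 (hg19, 8:38268656-38326352, minus strand), a receptor known for binding FGF2, had 9.32 and 2.90 CPM in parental replicates 1 and 2. It had 109.8 and 74.4 CPM in ABTr1, 120.3 and 49.5 in ABTr2, 117.8 and 85.9 in ABTr3, and 127.4 and 95.0 in ABTr4. Every clone library lay above both parental libraries, and replicate 1 was the higher one in each of the 5 groups. The mean log2 change over the clones was 3.98 (SE 0.59, edgeR adjusted p = 0.0033), a 15.8-fold rise from 6.11 ± 4.54 to 97.5 ± 11.5 CPM. FGFR1 passed in each clone, with log2 fold changes of 3.90 in ABTr1, 3.79 in ABTr2, 4.05 in ABTr3 and 4.18 in ABTr4. The call was lost in ABTr1 without ABTr1 replicate 1, in ABTr2 without parental replicate 2 and in ABTr3 without either library of ABTr3. The size moved with the parental library used: against the parental library of the same number the mean log2 ratio was 3.67 in replicate 1 and 4.67 in replicate 2, and the fit gave 3.38 without parental replicate 2 and 5.03 without parental replicate 1.

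FGFR2 (10:123237844-123357972, minus strand), whose epithelial isoform answers to FGF7 and FGF10, had 64.9 and 65.6 CPM in the parental libraries. It had 3.71 and 6.55 CPM in ABTr1, 2.62 and 12.1 in ABTr2, 3.60 and 2.51 in ABTr3, and 0.774 and 1.94 in ABTr4. The highest clone library, ABTr2 replicate 2, stayed far below both parental libraries, which were nearly equal. The mean of the clones fell from 65.2 ± 0.470 to 4.22 ± 2.59 CPM, which is a log2 change of -4.21 (SE 0.45, edgeR adjusted p = 0.00081) or 18.5-fold. FGFR2 passed in each clone, from -3.17 in ABTr2 through -3.67 in ABTr1 and -4.41 in ABTr3 to -5.60 in ABTr4. The call in ABTr2 was lost without 7 of the 10 libraries one at a time, and the value there was -2.44 without ABTr2 replicate 1 and -4.65 without ABTr2 replicate 2. The calls in ABTr1 and ABTr3 were lost without parental replicate 2 or either library of the clone itself, and in ABTr4 FGFR2 was at -6.39 without ABTr4 replicate 2. The counts are per gene, so the epithelial and mesenchymal isoforms of FGFR2 cannot be separated. FGFR3 (4:1795039-1810599) had 0 to 4 reads in each library and 23 in all, and a count of 0 allows up to 3 reads, or 0.145 CPM in the shallowest library. FGFR3 was therefore not detectable beyond a few reads at this depth, and no comparison was made for it.

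Of the ERBB receptors, ERBB3 and ERBB2 fell, EGFR passed only with the replicate block, and ERBB4 was near 0. ERBB3 (12:56473809-56497291), a receptor of neuregulins, had 136.8 and 251.6 CPM in parental cells, 25.6 and 47.1 in ABTr1, 11.1 and 33.4 in ABTr2, 10.4 and 18.9 in ABTr3, and 6.86 and 21.2 in ABTr4. All clone libraries lay below both parental libraries, and replicate 2 was higher in each group. The mean log2 change over the clones was -3.27 (SE 0.46, edgeR adjusted p = 0.0026), a 9.63-fold fall from 194 ± 81.2 to 21.8 ± 10.4 CPM. ERBB3 passed in ABTr2 (-3.13), ABTr3 (-3.73) and ABTr4 (-3.79). All 3 calls were lost without parental replicate 2, and with 5, 2 and 1 other libraries left out one at a time, and without replicate 2 of the clone itself the value was -4.14 in ABTr2 and -4.82 in ABTr4. In ABTr1 the value was -2.42 (SE 0.70, edgeR adjusted p = 0.065), and it passed there with the replicate block (-2.42, SE 0.26, edgeR adjusted p = 0.00026).

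ERBB2 (17:37844337-37884915), the preferred partner of the other ERBB receptors, had 188.4 and 329.9 CPM in parental cells, 116 and 173.4 in ABTr1, 94.7 and 132.4 in ABTr2, 68.0 and 82.5 in ABTr3, and 79.2 and 116.3 in ABTr4. The groups did not overlap, but the highest clone library, ABTr1 replicate 2, came close to parental replicate 1. The mean of the clones fell from 259 ± 100 to 108 ± 29.2 CPM, which is a log2 change of -1.31 (SE 0.26, edgeR adjusted p = 0.013). That call was lost without parental replicate 2 (-0.85, edgeR adjusted p = 0.17). Clone by clone, ERBB2 passed in ABTr3 (-1.78), a call lost without 3 of the 10 libraries one at a time, and in ABTr4 (-1.41), lost without 7, and with the replicate block also in ABTr1 (-0.82) and ABTr2 (-1.16).

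EGFR (7:55086725-55275031), the receptor of epidermal growth factor and of transforming growth factor alpha, had 411.6 and 307.7 CPM in parental cells, 370 and 231.1 in ABTr1, 294.9 and 187 in ABTr2, 349.6 and 201.5 in ABTr3, and 261.3 and 151.2 in ABTr4. Replicate 1 was higher in every group, and the groups overlapped. Each of the 8 clone libraries lay below the parental library of the same number. The mean log2 change over the clones was -0.51 (SE 0.32, edgeR adjusted p = 0.32), while the replicate block gave -0.54 (SE 0.14, edgeR adjusted p = 0.012). With the block EGFR also passed in ABTr2 (-0.60) and ABTr4 (-0.84), and in no clone without it. ERBB4 (2:212240442-213403352, minus strand), the other neuregulin receptor, had 0 reads in both parental libraries and 15 reads over the 8 clone libraries. A count of 0 allows up to 0.0744 and 0.116 CPM in the parental libraries, and every clone library was within 4 reads of 0.

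MET (7:116312459-116438440), the receptor of hepatocyte growth factor, had 642.4 and 670.9 CPM in parental cells, 466.8 and 468.7 in ABTr1, 486.6 and 431.1 in ABTr2, 367.7 and 379.8 in ABTr3, and 330 and 221.5 in ABTr4. Its parental libraries were close together and above every clone library. The mean of the clones fell from 657 ± 20.2 to 394 ± 89.6 CPM, which is a log2 change of -0.77 (SE 0.19, edgeR adjusted p = 0.029). The call was lost without parental replicate 2 (-0.74), and without parental replicate 1, either library of ABTr1 or ABTr3, or ABTr2 replicate 2. When each clone counted as 1 unit it was lost too (-0.73, edgeR adjusted p = 0.070). MET passed in 1 clone, ABTr4 (-1.25, SE 0.26, edgeR adjusted p = 0.021; 0.092 without parental replicate 2 and 0.14 without ABTr4 replicate 2), and with the replicate block also in ABTr3 (-0.81).

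AXL (19:41725104-41767672), the receptor of GAS6, differed 8-fold between the parental libraries, with 185.8 CPM in replicate 1 and 23.2 in replicate 2. The clone libraries held 192.4 and 224.8 CPM in ABTr1, 164.9 and 149.6 in ABTr2, 229.7 and 270.3 in ABTr3, and 191.7 and 193.7 in ABTr4. All clone libraries lay far above parental replicate 2, while 1 of the 4 of replicate 1, that of ABTr2, lay below parental replicate 1. The mean log2 ratio of the clones to the parental library of the same number was 0.06 in replicate 1 and 3.14 in replicate 2. Over both, the log2 change was 0.93 (SE 0.59, edgeR adjusted p = 0.33), and the replicate block gave 1.11 (SE 0.54, edgeR adjusted p = 0.14). AXL passed when parental replicate 1 was left out (3.06, edgeR adjusted p = 0.0013), and without parental replicate 2 the value was 0.10. The size for AXL therefore rests on which parental library is used, and in ABTr2 alone the value also turned, from 0.59 to -0.23 without parental replicate 2.

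DDR1 (6:30851861-30867933), a receptor of collagens, had 117.6 and 253.3 CPM in parental cells, 98.3 and 180.4 in ABTr1, 34.8 and 97.6 in ABTr2, 29.3 and 43.5 in ABTr3, and 38.3 and 89.1 in ABTr4. The groups overlapped through ABTr1, and all 8 clone libraries lay below the parental library of the same number. The mean log2 change over the clones was -1.45 (SE 0.44, edgeR adjusted p = 0.058), while the replicate block gave -1.43 (SE 0.16, edgeR adjusted p = 0.00013). With the block DDR1 also passed in ABTr2 (-1.55), ABTr3 (-2.25) and ABTr4 (-1.56). The same edgeR fit without the block called DDR1 in no clone. For ABTr3, 6 of 15 alternative fits called it, the block among them. Without parental replicate 2 the value of the mean was -0.79 (edgeR adjusted p = 0.46). DDR1 also passed with DESeq2 (adjusted p = 0.019). The deposited table lists DDR1 on 6 chromosome sequences, among them alternative versions of its region, and how reads that match several of them were counted is not given in the sources used here, so its count is uncertain.

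**Figure D2:**
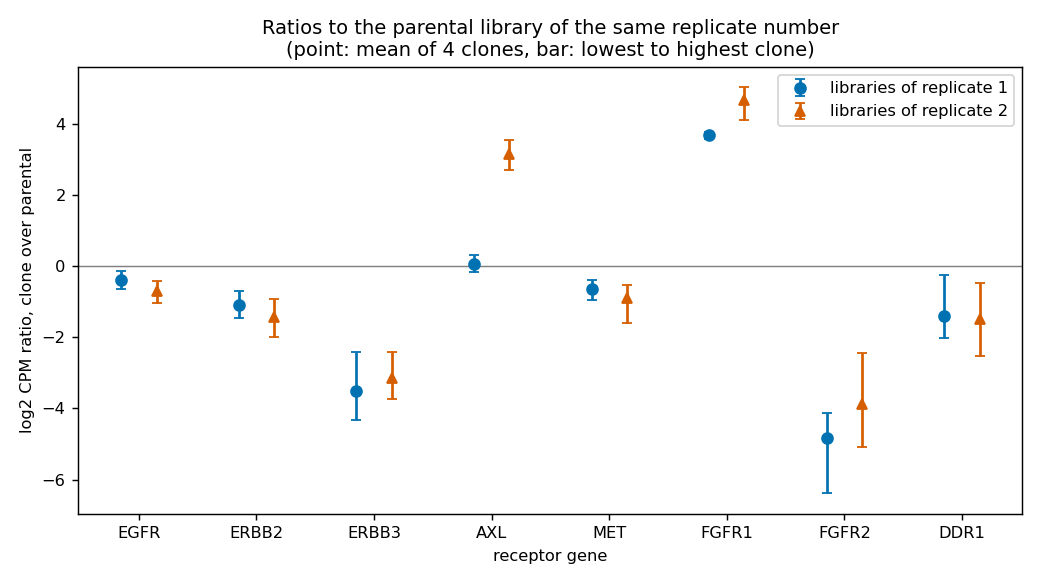
Log2 ratio of CPM between each clone library and the parental library of the same replicate number, for the 8 tested receptors. Points are means over the 4 clones and bars run from the lowest to the highest clone. AXL stands at 0.06 in replicate 1 and 3.14 in replicate 2, and every other receptor has its 2 points on the same side of 0.

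Several receptors differed by replicate number, in both directions. EGFR and FGFR1 were higher in replicate 1 than in replicate 2 in all 5 groups, and 18.2% of all tested genes did the same. ERBB2, ERBB3 and DDR1 were lower in replicate 1 in all 5 groups, as were 19.1% of all tested genes. For EGFR the ratio of replicate 1 to replicate 2 was 1.34 in parental cells and 1.58 to 1.74 in the clones, and for ERBB3 it was 0.544 and 0.323 to 0.553. The libraries of replicate 1 were also the deeper ones, and the part of depth in these ratios was not tested. All 8 clone libraries lay above both parental libraries for 1 receptor, FGFR1, and for 14.5% of all tested genes, and below for 4 receptors and 12.5% of genes.

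Clone by clone, FGFR1 and FGFR2 passed in each of the 4 clones. In ABTr1 they were the 2 calls, 1 higher and 1 lower, where 5.48% of tested genes were called higher and 4.29% lower, and with the replicate block 4 receptors passed beside 30.1% of genes. In ABTr2 ERBB3 was added, which made 1 higher and 2 lower beside 3.31% and 2.81% of genes, and with the block 6 receptors passed beside 22.1%. In ABTr3 ERBB2 was added too, for 1 higher and 3 lower beside 3.48% and 3.89%, and with the block 6 receptors passed beside 22.6%. In ABTr4 MET was added as well, for 1 higher and 4 lower beside 4.46% and 5.25%, and with the block 7 passed beside 27%. The 4 comparisons share the parental libraries. Single clones rest on 2 libraries, and without parental replicate 2 fewer receptors passed in each clone. Fewer of all tested genes passed too, in that fit and in those without a library of the clone itself. The loss of calls was therefore not particular to the receptors. Without one library of the clone itself, 0 or 1 passed in ABTr1, 1 or 3 in ABTr2, 0 in ABTr3 and 3 in ABTr4. In ABTr2 the count was also 1 without any library of ABTr1 or ABTr3. FGFR1 and FGFR2 passed in ABTr4 with any 1 of the 10 libraries left out, and FGFR1, FGFR2 and ERBB3 did so in the mean of the clones.

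In the test of differences among the 4 clones, 0 of the 8 receptors passed with edgeR, beside 0.00606% of all tested genes. At an unadjusted p under 0.05 the count was 1, FGFR2 (edgeR adjusted p = 0.92), and DESeq2 and limma-voom called 0. With the replicate block ERBB3 (edgeR adjusted p = 0.049) and DDR1 (edgeR adjusted p = 0.022) passed, beside 0.843% of genes. Both had their highest clone mean in ABTr1, with 36.3 ± 15.2 CPM of ERBB3 and 139 ± 58 CPM of DDR1. The lowest clone mean of ERBB3 was 14.04 ± 10.2 CPM in ABTr4, and that of DDR1 was 36.4 ± 10.1 CPM in ABTr3. The lower MET in ABTr4 was not shown to differ from the other clones (edgeR adjusted p = 0.94, and 0.15 with the block).

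**Figure D3:**
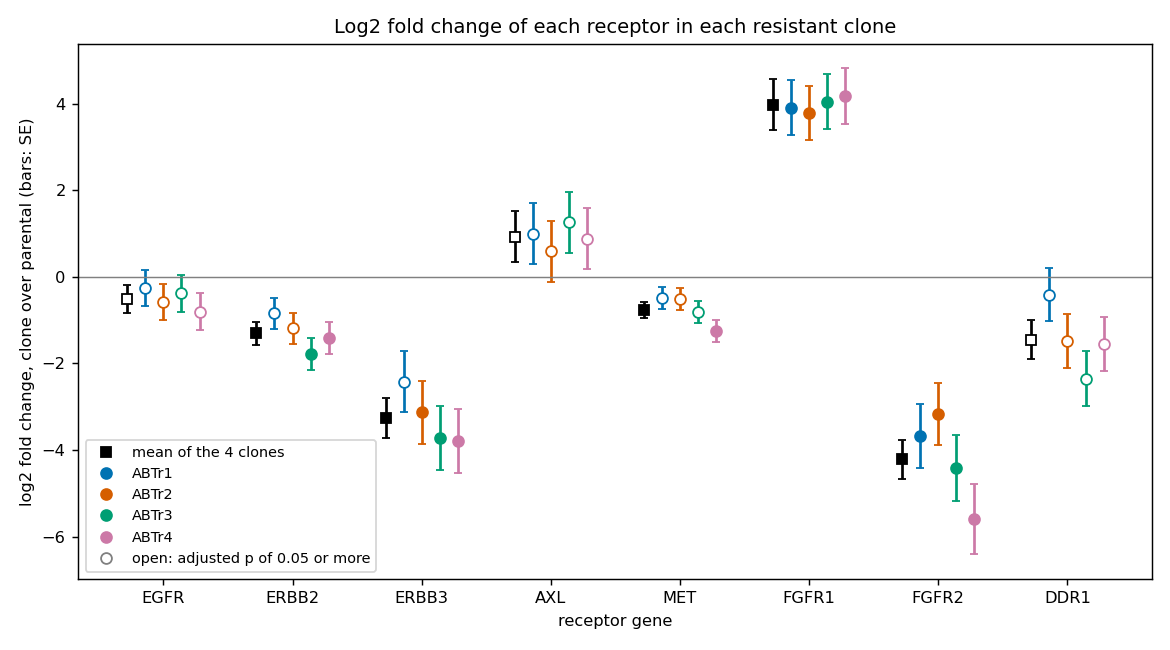
Log2 fold change against parental cells (edgeR, bars are SE) of each receptor in the mean of the 4 clones and in each clone, filled where the adjusted p was under 0.05. FGFR1 near 4 and FGFR2 between -3.17 and -5.60 are filled in every clone, and EGFR, AXL and DDR1 are open throughout.

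Compared per transcript length, in TPM (transcripts-per-million values, which divide by gene length), MET was the most abundant of the 10 receptors in parental cells at 211 ± 10.9 TPM. EGFR followed at 119 ± 33.7, ERBB2 at 99.7 ± 30.8 and DDR1 at 92.8 ± 41.3 TPM, and these neighbours did not differ beyond their spread. ERBB3 stood at 66.3 ± 22.6, AXL at 47.9 ± 54.2, FGFR2 at 25.2 ± 1.89 and FGFR1 at 2.15 ± 1.72 TPM. In the mean of the clones the order of levels was MET at 152 ± 39.7, AXL at 106 ± 23.5 and EGFR at 102 ± 22.7 TPM, followed by ERBB2 at 50 ± 16.5, DDR1 and then FGFR1 at 40.1 ± 4.42 TPM. ERBB3 at 8.96 ± 5.02 and FGFR2 at 1.89 ± 1.10 TPM came last of the tested receptors. AXL and EGFR, and ERBB2, DDR1 and FGFR1, overlapped in the clones.

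Set among 58 receptor tyrosine kinases, the 10 receptors made up 53.7% and 56.6% of the summed TPM in the parental libraries and 47.7% to 54.3% in the clone libraries. MET took the largest share in both libraries of parental cells (mean 17.5%), ABTr1 (15.6%) and ABTr2 (18.6%). In ABTr3 MET (14.9% ± 0.906), AXL (13.6% ± 2.07) and the ephrin receptor gene EPHA2 (13.4% ± 1.39) overlapped. In ABTr4 EPHA2 (13.2% ± 3.22), MET (12.1% ± 2.16) and AXL (11.7% ± 1.28) overlapped too, with EPHA2 highest in replicate 1 and AXL in replicate 2.

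Genes near the receptors were compared as a description of their regions. The tested genes within 1 Mb had median log2 fold changes in the mean of the clones of -0.34 for ERBB3 (50 genes), -0.31 for AXL (43) and -0.30 for MET (8), and of -0.23 for FGFR2 (9), -0.13 for ERBB2 (45), -0.11 for FGFR1 (23), -0.09 for EGFR (16) and 0.30 for DDR1 (81). FGFR1, at 3.98, and FGFR2, at -4.21, lay far from the medians of their neighbours. In the mean of the clones 2 of the 8 neighbours of MET were called higher and 2 lower. In ABTr4 these 8 had a median of -0.88, while MET itself was at -1.25 there. Of the 8, 2 were called lower and 0 higher in ABTr4, beside 5.25% and 4.46% of all tested genes. The same 8 genes had medians of -0.24 in ABTr1, 0.17 in ABTr2 and -0.13 in ABTr3. Copy number was not measured, and its part in the value for MET was not tested.

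The genes whose centred log2 CPM profile over the 10 libraries lay closest to a receptor were found among 11315 genes with a mean of at least 5 CPM. For FGFR1 they were FBXL7 and FOXL1, with root mean square log2 differences of 0.30 and 0.30, and for FGFR2 SOWAHB (0.57) and KLK10 (0.61). For ERBB3 they were PTAFR (0.38) and HSPB1 (0.42), for ERBB2 CTNND1 (0.17) and VEZF1 (0.18), and for MET ERO1L (0.14) and MDFIC (0.15). FOXL1, a forkhead transcription factor, stood at 0.662 CPM in parental cells and 9.21 in the clones, and KLK10, a secreted protease, at 91.9 and 5.62 CPM. Closeness was set by the same libraries that gave the calls, and nothing was tested with it.

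The ligands of the receptors moved in both directions. Of the 10 tested ERBB ligands, 1 rose and 1 fell, with a median log2 fold change of -0.13 (edgeR). Counts in this and the following lists stand beside 7.17% of all tested genes called higher and 8.79% called lower. With the replicate block these shares were 16.3% and 18.2%. Whether any list differed from all tested genes was not tested. NRG1, which encodes neuregulin 1, the ligand of ERBB3 and ERBB4, fell from 24.9 ± 11.4 to 4.17 ± 0.877 CPM (-2.60, SE 0.31, edgeR adjusted p = 0.0013). NRG2, the related neuregulin 2, rose from 1.38 ± 0.641 to 8.02 ± 0.780 CPM (2.52, SE 0.54, edgeR adjusted p = 0.017), a call lost without parental replicate 2 (2.12, edgeR adjusted p = 0.13). The EGFR ligand genes EREG (1.34, SE 0.68, edgeR adjusted p = 0.22) and AREG (-1.63, SE 1.04, edgeR adjusted p = 0.33) did not pass. AREG had 14 and 0 reads in the parental libraries, and its value turned to 4.20 without parental replicate 1, so no direction can be given.

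Of 18 genes for FGF ligands 7 were tested, 1 rose and 0 fell, beside 7.17% and 8.79% of all tested genes, and the median was 0.73. FGF5, a secreted ligand of FGF receptors, had 30.6 and 6.42 CPM in parental cells and 45.4 to 332.3 CPM in the clone libraries. The log2 change of FGF5 was 3.03 (SE 0.86, edgeR adjusted p = 0.045), and the call was lost without 6 of the 10 libraries one at a time, among them parental replicate 2 (2.30, edgeR adjusted p = 0.21). Without parental replicate 1 it passed at 4.53. FGF2, a ligand of FGFR1, was at 101 ± 12.3 CPM in parental cells and 76.5 ± 24.1 in the clones and did not pass (-0.45). FGF18 (-0.85) did not pass either, nor did FGF20 (2.42), which had 0 and 2 parental reads and ran from 1.2 to 5.88 with single libraries left out. Of the other FGF receptors and co-receptors, FGFRL1 (0.49), KLB (0.41) and FGFR4 (0.08) were tested and 0 passed, with 0 at an unadjusted p under 0.05 by edgeR and 0 by DESeq2 or limma-voom, and FGFRL1 passed with the replicate block (0.53). FGFR4 had 30 and 2 parental reads, and its value ran from -0.73 to 2.45 with single libraries left out.

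Of the 9 tested ligands, processing factors and partner receptors of AXL and MET, 4 fell and 0 rose (edgeR), with a median of -0.67. Of all tested genes 8.79% fell and 7.17% rose. Those that fell were ST14, a membrane protease that can activate hepatocyte growth factor (-2.62, SE 0.22), SPINT1 (-2.72, SE 0.40) and SPINT2 (-1.44, SE 0.41), which encode inhibitors of such proteases, and MST1R, the receptor related to MET (-1.02, SE 0.20). SPINT2 was lost in limma-voom and without 5 of the 10 libraries one at a time, among them parental replicate 2 (-0.93, edgeR adjusted p = 0.35). MST1R was lost without that library (-0.90, edgeR adjusted p = 0.096), and SPINT1 passed at -2.13 without it. HGF, the gene of the MET ligand, had 0 reads in every library, which allows up to 0.145 CPM in the shallowest one. The AXL ligand gene GAS6 was at 121 ± 29.6 CPM in parental cells and 77.0 ± 11.1 in the clones (-0.67, edgeR adjusted p = 0.26), and PROS1 at 28.0 ± 15.4 and 70.3 ± 22.9 CPM (1.27, edgeR adjusted p = 0.19). With the block both passed, PROS1 as higher and GAS6 as lower, which made 1 higher and 5 lower in that list. GAS6 and PROS1 were named after their values were seen.

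Below the receptors, 1 of 14 adaptor genes rose and 4 fell, beside 7.17% and 8.79% of all tested genes, with a median of -0.25 (edgeR). PLCG1, the phospholipase bound by FGF receptors, rose from 77.1 ± 27.2 to 262 ± 40.5 CPM (1.75, SE 0.26, edgeR adjusted p = 0.0031). GRB7, an adaptor of ERBB receptors (-2.58), GAB1, an adaptor of MET and EGFR (-1.20), FRS2, the docking protein of FGF receptors (-0.65), and SOS1, an activator of RAS (-0.65), fell. SOS1 (SE 0.17, edgeR adjusted p = 0.034) was named after its values were seen, and its call was not followed with single libraries left out. GRB7 and GAB1 were lost without parental replicate 2 (-1.82 and -0.79), and FRS2 without 8 of the 10 libraries one at a time.

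Of 22 negative regulators 1 rose and 4 fell, beside 7.17% and 8.79% of all tested genes, with a median of -0.14 (edgeR). With the block 2 rose and 7 fell, beside 16.3% and 18.2%. CBLC, an E3 ligase of EGFR, fell from 28.3 ± 3.32 to 1.68 ± 1.78 CPM (-4.65, SE 0.40, edgeR adjusted p = 0.00035), and LRIG1, a membrane protein that promotes loss of ERBB receptors, from 60.8 ± 21.9 to 17.1 ± 3.40 CPM (-1.86, SE 0.26, edgeR adjusted p = 0.0025). SH3KBP1, a partner of CBL proteins in endocytosis, rose (1.27), a call lost without either parental library and in 4 other such fits. SPRY1, an inhibitor of RAS signalling, was called lower (-2.93) on 12.2 CPM in parental replicate 2 alone, since parental replicate 1 had 0.843 CPM, and without replicate 2 the call was gone (edgeR adjusted p = 1). PTPN2, a phosphatase, fell (-0.57, SE 0.16, edgeR adjusted p = 0.045). It was named after its values were seen, and its call was not followed with single libraries left out.

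Of 10 target genes of ERK signalling 2 rose and 1 fell, beside 7.17% and 8.79% of all tested genes, with a median of 0.10 (edgeR). With the block 4 rose and 4 fell, beside 16.3% and 18.2%. IER3 (2.13, SE 0.28) and ETV1 (2.44, SE 0.33), which encodes a transcription factor, rose. EGR1, an early response gene, had 119 and 249 CPM in parental cells and 3.03 to 125 CPM in the clone libraries (-3.44, SE 0.67, edgeR adjusted p = 0.011), with the highest value in ABTr1 replicate 1, and was lost without parental replicate 2 (-2.82, edgeR adjusted p = 0.11). FOS stood at -2.05 (SE 0.65, edgeR adjusted p = 0.064), and passed with the block. Of 10 genes of the RAS to ERK cascade 0 passed, with 1 at an unadjusted p under 0.05 by edgeR, 1 by DESeq2 and 0 by limma-voom.

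Of 13 genes of PI3K and AKT signalling 1 rose and 3 fell, beside 7.17% and 8.79% of all tested genes, with a median of -0.27 (edgeR). PIK3R3, a regulatory subunit known for binding ERBB3 (-2.34, SE 0.22), INPP4B, a phosphatase that limits the pathway (-2.74, SE 0.33), and AKT2 (-0.93, SE 0.15) fell. INPP4B passed at -1.77 without parental replicate 2 and at -3.35 without parental replicate 1. PIK3CD, a catalytic subunit, rose (1.63, SE 0.43), a call lost without 5 of the 10 libraries one at a time, among them parental replicate 2 (1.05, edgeR adjusted p = 0.15). None of 8 genes for proteases that release ligands and ectodomains, or for their regulators, passed in edgeR, with 2 at an unadjusted p under 0.05, 1 called by DESeq2 and 0 by limma-voom, and with the block 1 rose and 2 fell.

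Of the 48 other receptor tyrosine kinases 39 were tested, 6 rose and 6 fell (edgeR), where 7.17% and 8.79% of all tested genes did. Their median was 0.16 beside -1.04 for the 8 receptors. With the block 11 rose and 9 fell, where 16.3% and 18.2% of all tested genes did. The ephrin receptors EPHA1 (-3.47, SE 0.32), EPHB3 (-3.46, SE 0.35) and EPHB4 (-1.08, SE 0.16) fell. ALK rose (3.66, SE 0.62, edgeR adjusted p = 0.0060), a call lost without parental replicate 2 (3.34, edgeR adjusted p = 0.060). Nothing was tested between the 8 receptors and these 39.

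**Figure D4:**
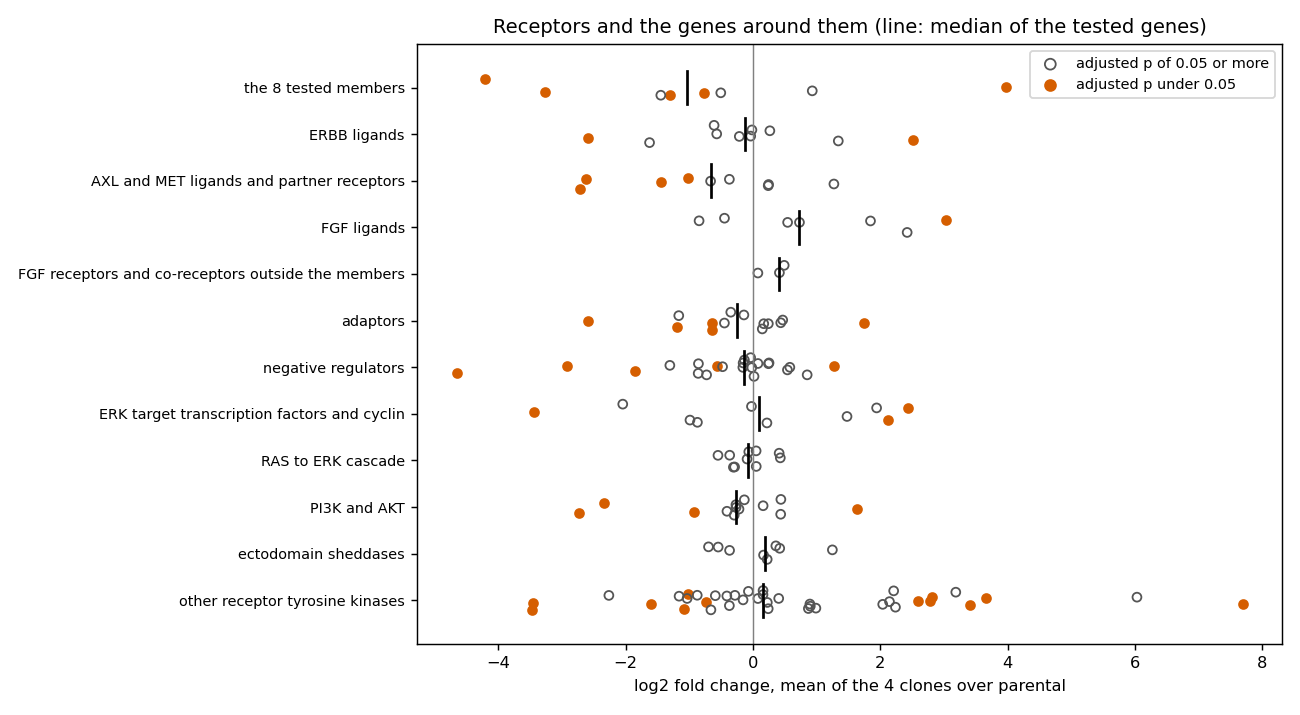
Log2 fold change of the mean of the 4 clones over parental cells for the 8 tested receptors and for the tested genes of each list of ligands, signalling genes and other receptors, 1 point per gene, filled where the edgeR adjusted p was under 0.05, with lines at the medians. The receptors have their median at -1.04, and the other lists drawn here have medians between -0.67 and 0.73.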

How the data were processed

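RNA of 2 libraries each of parental PEO1 and 4 veliparib-resistant clones was analysed. Polyadenylated RNA went into an unstranded library kit, per the labels' protocols. The submitters' processing notes name TopHat2 2.0.14 with genome hg19 for alignment and featureCounts 1.4.6 for counting. The values are the deposited raw counts per gene, used as given. Strand and multiple-match settings are not given in the sources used here, so overlapping genes and close copies are uncertain. The design text speaks of more samples than the 10 libraries analysed here.

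The filter of edgeR 4.0.16 left 16490 of 25370 genes. TMM factors and quasi-likelihood tests followed, with 1 mean for every group, 5 residual df and a Benjamini-Hochberg adjusted threshold of 0.05, and CPM use the TMM-scaled library sizes. TPM use exon lengths computed for every gene from the exon positions of the table on a single chromosome sequence, for DDR1 on chromosome 6. Alternatives were DESeq2 1.42.0 (size factors, and its test), limma-voom (limma 3.58.1), no filter, each library left out, the clone as the unit, and the replicate number as a block. Same-numbered libraries were taken as paired because all 10 correlations of deviations between groups (0.28 to 0.731) were above 0.1. The block lowered the biological coefficient of variation from 0.368 to 0.234. Ratios within each replicate number, and the alternatives for listed genes, were chosen after seeing the data. The edgeR fit without the block was tested on simulated counts, for the mean of the clones only. Those counts held no effect shared by same-numbered libraries. The block, the single clones and the differences among clones were not simulated.

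The receptors and lists were chosen with earlier results of these data known. Named genes were all receptors, up to 4 tested genes per list with the smallest adjusted p, every listed ligand that passed, and the 2 closest profiles per receptor that passed, and 1 gene under this rule is not reported here. R 4.3.3 was used. Sequences are from RefSeq (GRCh38.p14). Depth limits low genes: 3 reads are the floor for a count of 0, and intervals of this kind cover counting error only.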

Additional observations from a re-analysis of the deposited data

How the results depend on the processing

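All member calls kept their side of the threshold with DESeq2 size factors in edgeR. The replicate block added calls and reversed none, and a DESeq2 test, limma-voom and no filter on low counts did the same in fewer receptors. Over all tested genes, 2631 were called in the mean of the clones, 4072 with DESeq2 and 5699 with the replicate block. In ABTr1 the counts were 1611, 3175 and 4956, in ABTr2 1008, 2488 and 3640, in ABTr3 1216, 2526 and 3722, and in ABTr4 1602, 3118 and 4450. Among the clones they were 1, 284 and 139, with 0 in limma-voom and 2 without the filter. With the block 4 receptors passed in ABTr1, 6 in ABTr2, 6 in ABTr3, 7 in ABTr4 and 2 among the clones, in place of 2, 3, 4, 5 and 0.

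Leaving out each library in turn gave 918 to 2527 genes in the mean of the clones, 221 to 1559 in ABTr1, 251 to 1028 in ABTr2, 81 to 1256 in ABTr3, 453 to 1594 in ABTr4 and 0 to 1 among the clones. The receptors called numbered 3 to 6 in the mean, 0 to 3 in ABTr1, 0 to 4 in ABTr2, 0 to 6 in ABTr3, 2 to 6 in ABTr4 and 0 among the clones. Of 480 receptor values with a library left out, 418 kept their side of the threshold, 48 lost a call and 14 gained one. Of these, 0 changed sign with a call in either fit, and the tests among the clones have no sign. Values with no call in either fit did turn. EGFR in ABTr1 went from -0.26 to 0.04 without ABTr1 replicate 2. DDR1 in ABTr1 went from -0.41 to 0.22 and AXL in ABTr2 from 0.59 to -0.23, both without parental replicate 2. SPRY1, which is not among these receptor values, was called in the fit with all libraries (-2.93). It ran from -3.87 without parental replicate 1 to 0.005 without parental replicate 2, on the log2 scale, so a called value turned there. A group left with 1 library was assumed to vary like the others. AXL at replicate 1 alone was 0.06 and at replicate 2 alone 3.14. The causes of these changes were not tested. Depth limits ERBB4, FGFR3 and HGF.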
